A study of Rattus norvegicus with 23 samples.

Results

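The rats' dorsal striatum was examined here for 3 genes of the glucocorticoid response: Nr3c1, which encodes the glucocorticoid receptor, and Sgk1 and Fkbp5, 2 genes that the receptor switches on. They were chosen by name and by Ensembl identifier, not by their values, though earlier results of these data were known. They are 3 of the 32552 genes listed. All 3 had enough counts to be tested, among 16275 genes that did. Nr3c1 (ENSRNOG00000014096), Sgk1 (ENSRNOG00000011815) and Fkbp5 (ENSRNOG00000022523) lie on chromosomes 18, 1 and 20. The level of none of them was shown to differ between the groups of rats. Nr3c1 was the steadiest, Fkbp5 varied moderately, and Sgk1 varied widely between rats of the same group, least so among rats labelled shock sensitive.

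The study asked which genes distinguish rats that keep taking methamphetamine (METH) when the drug is paired with footshocks from rats that stop. The 23 animals were wild-type adult male Long Evans rats, with 1 RNA library per rat. The control group (CT, n = 6) self-administered saline and received no footshocks. The other groups self-administered METH at 0.1 mg/kg per infusion, for 22 days by the labels, and then received footshocks on 8 days, beginning at 0.18 mA and ending at 0.36 mA. After 15 days of abstinence they took METH again for 12 days and met 0.30 mA footshocks on 3 days. A further abstinence followed, in which rats of all groups were tested for METH seeking with cues but no drug. The tissue was collected the day after the last of these tests, and not directly after the footshocks. Rats labelled shock resistant kept pressing for METH in both punishment phases (ASR, n = 6). Rats labelled resurgence shock resistant cut their intake in the first phase only (DSR, n = 5), and rats labelled shock sensitive cut it in both (AS, n = 6). Behavior, not random allocation, thus sorted the METH rats into their groups, every METH rat had been shocked, and METH and footshock cannot be told apart in a comparison with CT. The METH groups were not matched in drug or shocks either, because footshocks came with presses for METH. By the paper, ASR rats took more METH than AS rats during both punishment phases, and DSR rats did so in the second.

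The glucocorticoid receptor is a nuclear receptor that waits in the cytoplasm in a complex with the chaperone Hsp90. Corticosterone, the stress hormone of rats, binds it, and the receptor then enters the nucleus and regulates genes at glucocorticoid response elements. Fkbp5 encodes FKBP51, an Hsp90 co-chaperone that lowers the affinity of the receptor for its hormone, so that its induction forms a short feedback loop. Sgk1 encodes a serine/threonine kinase that regulates ion channels and transporters, and its mRNA is known to respond quickly to glucocorticoids and to other stimuli. In the brain, both mRNAs are commonly used as readouts of receptor activity.

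The sequence just upstream of each gene's start is shown because the letters of a TATA box stand before 2 of the 3 listed starts of Sgk1 and in no window of the other members. RefSeq (build GRCr8) gave 6 start sites for these genes, 2 for Nr3c1, 3 for Sgk1 and 1 for Fkbp5. The 250 bases before the first listed start of Nr3c1 (chr18:31614220-31614469), before the 3 listed starts of Sgk1 (chr1:24807232-24807481, chr1:24805571-24805820 and chr1:24804832-24805081) and before the start of Fkbp5 (chr20:6543556-6543805), all on the minus strand, read 5′ to 3′ as follows, with the letters TATAAA in capitals.
Nr3c1, start 1: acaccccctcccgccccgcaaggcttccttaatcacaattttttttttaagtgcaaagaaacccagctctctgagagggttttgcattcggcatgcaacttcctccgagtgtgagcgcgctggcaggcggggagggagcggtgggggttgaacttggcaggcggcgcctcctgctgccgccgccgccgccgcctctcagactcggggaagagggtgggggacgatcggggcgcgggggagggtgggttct
Sgk1, start 1: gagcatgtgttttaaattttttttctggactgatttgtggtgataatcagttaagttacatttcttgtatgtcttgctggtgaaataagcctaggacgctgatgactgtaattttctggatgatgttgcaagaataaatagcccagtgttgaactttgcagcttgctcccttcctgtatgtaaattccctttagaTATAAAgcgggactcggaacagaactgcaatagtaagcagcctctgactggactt
Sgk1, start 2: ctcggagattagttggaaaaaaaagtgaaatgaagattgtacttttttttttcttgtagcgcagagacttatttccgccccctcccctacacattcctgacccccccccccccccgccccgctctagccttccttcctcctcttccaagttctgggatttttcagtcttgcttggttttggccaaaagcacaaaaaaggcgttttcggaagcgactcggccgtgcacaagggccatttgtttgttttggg
Sgk1, start 3: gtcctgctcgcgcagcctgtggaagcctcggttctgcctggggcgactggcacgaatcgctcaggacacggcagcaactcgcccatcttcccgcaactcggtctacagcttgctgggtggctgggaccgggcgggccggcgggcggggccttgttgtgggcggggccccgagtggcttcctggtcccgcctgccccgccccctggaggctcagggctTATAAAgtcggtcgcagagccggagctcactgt
Fkbp5, start 1: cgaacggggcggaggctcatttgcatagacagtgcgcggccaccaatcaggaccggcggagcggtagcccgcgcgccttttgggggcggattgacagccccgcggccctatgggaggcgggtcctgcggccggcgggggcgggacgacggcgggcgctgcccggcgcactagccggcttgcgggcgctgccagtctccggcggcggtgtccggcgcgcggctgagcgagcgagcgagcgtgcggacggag

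TATAAA, the core of a TATA box, stood on the gene's strand in 2 of the 6 windows, both of Sgk1, beginning 55 and 33 bases before the start. Of all 33469 RefSeq windows of this length, 8.06% held it. Whether either match works as a TATA box was not tested. The Sgk1 windows had a G and C content of 39.2%, 49.6% and 69.6%, those of Nr3c1 64.0% and 78.4% and that of Fkbp5 76.0%, beside a median of 51.2% over all windows. The palindromic response element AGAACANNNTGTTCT, searched on both strands, stood in 0 of the 6 windows and in 4 of all windows (0.012%). AGAACA, which is a part of that element, also stood in 0 of the 6 windows when both strands were searched, and in 17.5% of all windows. A window without these letters says nothing of response elements elsewhere, and the motifs were chosen after the expression values had been seen.

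Library totals ranged from 18967015 to 28137676 counts, and every DSR library (at least 24588332) was deeper than every AS library (at most 24019678). Counts were divided by library size with TMM factors between 0.930 and 1.05 and are given as CPM, counts in every 1000000 of the scaled library. Mitochondrial genes took 11.6% to 19.6% of the counts, with the highest share in the AS rat Grp7-R1. Each rat has a code with the number 7 or 8, whose meaning is not given and which is called cohort here. CT rats fell 4 to cohort 7 and 2 to cohort 8, ASR rats 3 and 3, DSR rats 2 and 3, and AS rats 4 and 2. In whole tissue, a lower level can come from fewer cells of a type or from less RNA per cell, and these cannot be told apart.

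Nr3c1 lies at 31728373 to 31749647 on chromosome 18 of Rnor6.0, the build of the counts, on the minus strand. The annotation used for the counts lists 7 exons for it with an exonic length of 5078 bases, and only reads in these exons were counted. No other listed gene overlaps Nr3c1, and the same holds for Sgk1 and Fkbp5. The receptor's mRNA was measured with 1638 to 2446 counts per rat. In CT rats it lay between 75.3 and 88.6 CPM with a median of 86.0 (mean 84.4 ± 4.82, SD, n = 6). ASR rats spanned 73.8 to 98.1 CPM with a median of 86.0 (mean 86.7 ± 8.19, n = 6), and thus held both the lowest and the highest rat of all. The 5 DSR rats had 88.1 (Grp7-L2), 95.8 (Grp7-R7), 92.0 (Grp8-L4), 94.4 (Grp8-L9) and 84.9 CPM (Grp8-R1), with a mean of 91.0 ± 4.50. AS rats lay between 83.0 and 93.0 CPM with a median of 87.2 (mean 87.3 ± 3.52, n = 6). The 4 groups overlapped, and over all 23 rats the highest level was 1.33 times the lowest.

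The largest difference of Nr3c1 in size was that between DSR and CT rats, at 0.11 on the log2 scale (SE 0.0582, 95% confidence interval −0.01 to 0.23, unadjusted p = 0.0727, adjusted p = 0.982 in edgeR's quasi-likelihood test). As a fold this is 1.08, with an interval from 0.992 to 1.17. With each rat left out in turn, the log2 difference of DSR from CT rats ran from 0.07 to 0.13. ASR rats exceeded CT rats by 0.04 (−0.08 to 0.15) and AS rats exceeded them by 0.05 (−0.07 to 0.16), and both intervals include 0. Among METH rats, the log2 difference of ASR rats was −0.01 from AS rats (−0.13 to 0.10) and −0.07 from DSR rats (−0.19 to 0.05), and that of DSR rats from AS rats was 0.06 (−0.06 to 0.18). The means ran from DSR through AS and ASR to CT, and no neighbours in that order differed beyond their spread. Over the 6 comparisons, the intervals for the receptor's mRNA reached no further than folds of 0.876 and 1.17. These intervals are set for each comparison separately.

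Sgk1 lies at 24185435 to 24302298 on chromosome 1, on the minus strand. The annotation gives it several transcripts with 17 separate exonic blocks and an exonic length of 3657 bases. Its counts ran from 1592 to 4818 per rat, so that counting error was small beside the range. In CT rats Sgk1 spanned 82.3 to 194.0 CPM with a median of 134.6 (mean 133 ± 41.5, n = 6). ASR rats spanned 79.4 to 186.5 CPM with a median of 128.6 (mean 134 ± 39.3, n = 6). The 5 DSR rats had 110.8 (Grp7-L2), 62.4 (Grp7-R7), 125.2 (Grp8-L4), 193.4 (Grp8-L9) and 63.9 CPM (Grp8-R1), with a mean of 111 ± 53.8. The DSR group thus held the 2 lowest rats of the study and one of the highest. AS rats lay between 101.7 and 136.6 CPM with a median of 111.5 (mean 117 ± 15.7, n = 6), inside the range of each other group. The coefficient of variation, the SD as a share of the mean, was 31.2% in CT, 29.4% in ASR, 48.4% in DSR and 13.5% in AS rats. Nr3c1 and Fkbp5 also had their smallest coefficient in AS rats (4.03% and 9.93%), but differences in spread between groups were not tested.

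**Figure D1:**
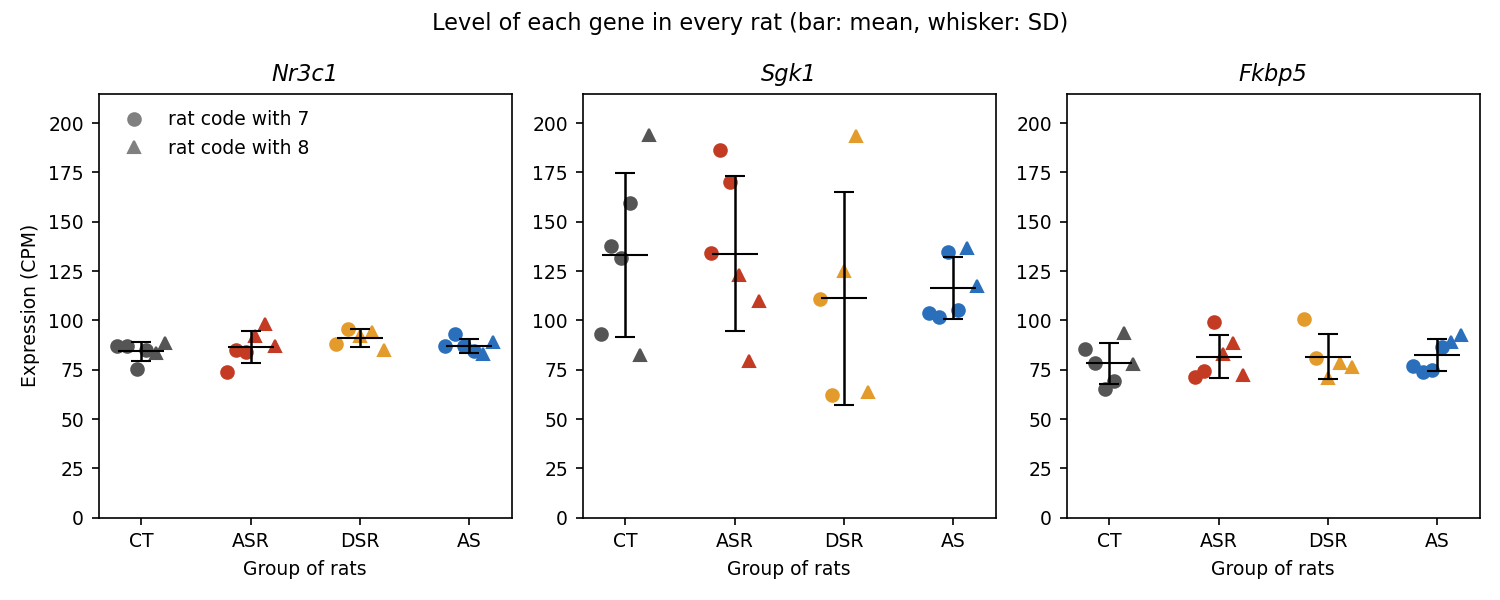
Level of Nr3c1, Sgk1 and Fkbp5 (CPM, linear axis from 0) in each of the 23 rats, by group, with circles for cohort 7 and triangles for cohort 8, and with the mean and SD as bar and whisker. The points of Nr3c1 lie between 73.8 and 98.1 CPM in all groups, whereas those of Sgk1 scatter from 62.4 to 194.0 CPM, least so in AS rats.

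No comparison of Sgk1 exceeded the spread between rats. Relative to CT rats, the log2 difference was 0.01 for ASR rats (SE 0.246, interval −0.50 to 0.52, adjusted p = 0.998 in edgeR), −0.26 for DSR rats (SE 0.260, −0.80 to 0.28, adjusted p = 0.982) and −0.19 for AS rats (SE 0.247, −0.70 to 0.32, adjusted p = 0.676). ASR rats differed by 0.20 from AS rats (−0.31 to 0.71) and by 0.27 from DSR rats (−0.27 to 0.81), and DSR rats from AS rats by −0.07 (−0.61 to 0.47). The intervals over the 6 comparisons run from a fold of 0.576 to one of 1.75, so that changes of the kinase's mRNA inside this range remain possible. The means ran from ASR through CT and AS to DSR, without a difference between neighbours beyond their spread.

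Single DSR rats moved the differences of Sgk1 in both directions. Without Grp8-L9, the highest, the log2 difference of DSR rats was −0.56 from CT rats (unadjusted p = 0.0328, adjusted p = 0.776 in edgeR) and −0.36 from AS rats (adjusted p = 0.326), and ASR rats exceeded DSR rats by 0.56 (unadjusted p = 0.0309, adjusted p = 0.425). Without Grp7-R7 or Grp8-R1, the lowest, the difference of DSR from CT rats was −0.12 in both cases (adjusted p = 0.996 and 0.986 in edgeR), that of ASR from DSR rats 0.13 in both, and that of DSR from AS rats turned to 0.08 and 0.09. No difference passed the threshold of 0.05 on the adjusted p without any of these rats. Because the rats are named for their own Sgk1 levels, the p-values without them describe the dependence on single rats and are not tests of a group difference. How many of all genes had an unadjusted p under 0.05 without these rats was not counted.

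Several differences of Sgk1 between groups had opposite signs in the 2 cohorts. In cohort 7, ASR rats had 134.2, 186.5 and 170.1 CPM and the 2 DSR rats 110.8 and 62.4 CPM. In cohort 8, ASR rats had 123.0, 79.4 and 110.1 CPM and DSR rats 125.2, 193.4 and 63.9 CPM. The log2 difference in ASR vs DSR was 0.92 in cohort 7 (unadjusted p = 0.00292, adjusted p = 0.217 in edgeR) and −0.29 in cohort 8. The value in cohort 7 rests on 3 ASR and 2 DSR rats. How many of all genes had an unadjusted p under 0.05 in cohort 7 by itself was not counted. The change of the ASR vs DSR difference from cohort 7 to cohort 8 was −1.21 (SE 0.504, unadjusted p = 0.027, adjusted p = 0.511). An unadjusted p under 0.05 for this change was found for 9.46% of all tested genes, and its adjusted p was under 0.05 for 0 genes. ASR vs CT was 0.33 in cohort 7 and −0.40 in cohort 8. The difference of ASR from AS rats was 0.56 and −0.27. In edgeR, the change between cohorts had an unadjusted p of 0.144 in ASR vs CT (adjusted p = 0.99997). In ASR vs AS it had an unadjusted p of 0.0959 (adjusted p = 0.999). Over all groups, the cohorts had like levels of Sgk1 (125.5 ± 34.0 CPM in 13 rats and 122.5 ± 44.0 CPM in 10 rats).

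Fkbp5 lies at 7976713 to 8019020 on chromosome 20, on the minus strand, and had 1492 to 2789 counts per rat. The annotation lists 10 exons for it, with an exonic length of 3387 bases. In CT rats the co-chaperone's mRNA lay between 65.1 and 93.6 CPM with a median of 78.3 (mean 78.3 ± 10.4, n = 6). ASR rats lay between 71.2 and 99.2 CPM with a median of 78.8 (mean 81.6 ± 10.97, n = 6). The 5 DSR rats had 101.0 (Grp7-L2), 81.2 (Grp7-R7), 70.9 (Grp8-L4), 78.6 (Grp8-L9) and 76.5 CPM (Grp8-R1), with a mean of 81.7 ± 11.4. AS rats lay between 74.0 and 92.8 CPM with a median of 81.8 (mean 82.4 ± 8.18, n = 6). All groups overlapped. The highest rat of the study was DSR Grp7-L2, and the lowest was a CT rat. DSR Grp8-L9, among the highest in Sgk1, was near the middle in Fkbp5.

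All METH groups had a slightly higher mean of Fkbp5 than CT rats, but none beyond the spread. The log2 difference from CT was 0.06 in ASR rats (SE 0.0985, interval −0.15 to 0.26, adjusted p = 0.963 in edgeR), 0.06 in DSR rats (SE 0.103, −0.15 to 0.27, adjusted p = 0.982) and 0.07 in AS rats (SE 0.0986, −0.13 to 0.28, adjusted p = 0.687). These comparisons share the CT rats. Between METH groups the differences from AS rats were −0.01 in ASR rats (−0.22 to 0.19) and −0.01 in DSR rats (−0.23 to 0.20), and ASR rats differed from DSR rats by −0.0020 (−0.22 to 0.21). The intervals over the 6 comparisons bound the folds at 0.855 and 1.21. In DSR vs CT the log2 difference was 0.29 in cohort 7 and −0.19 in cohort 8, a change of −0.48 (SE 0.193, unadjusted p = 0.0237, adjusted p = 0.735). In DSR vs AS it was 0.22 and −0.26, a change of −0.50 (SE 0.193, unadjusted p = 0.0190, adjusted p = 0.676). The shares of all tested genes with an unadjusted p under 0.05 for these changes were 5.54% and 7.07%. Cohort 7 held only 2 DSR rats, one of them Grp7-L2, and cohort 8 held 2 CT and 2 AS rats. Without Grp7-L2, the log2 difference over both cohorts was −0.03 in DSR vs CT and −0.09 in DSR vs AS. Changes between cohorts were computed for each member in all 6 comparisons, and those printed include the ones with the smallest unadjusted p. Of Nr3c1, the ASR vs AS difference was −0.12 in cohort 7 and 0.12 in cohort 8. This change had an unadjusted p of 0.0517 in edgeR (adjusted p = 0.999), and 4.02% of all tested genes had an unadjusted p under 0.05 for it.

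**Figure D2:**
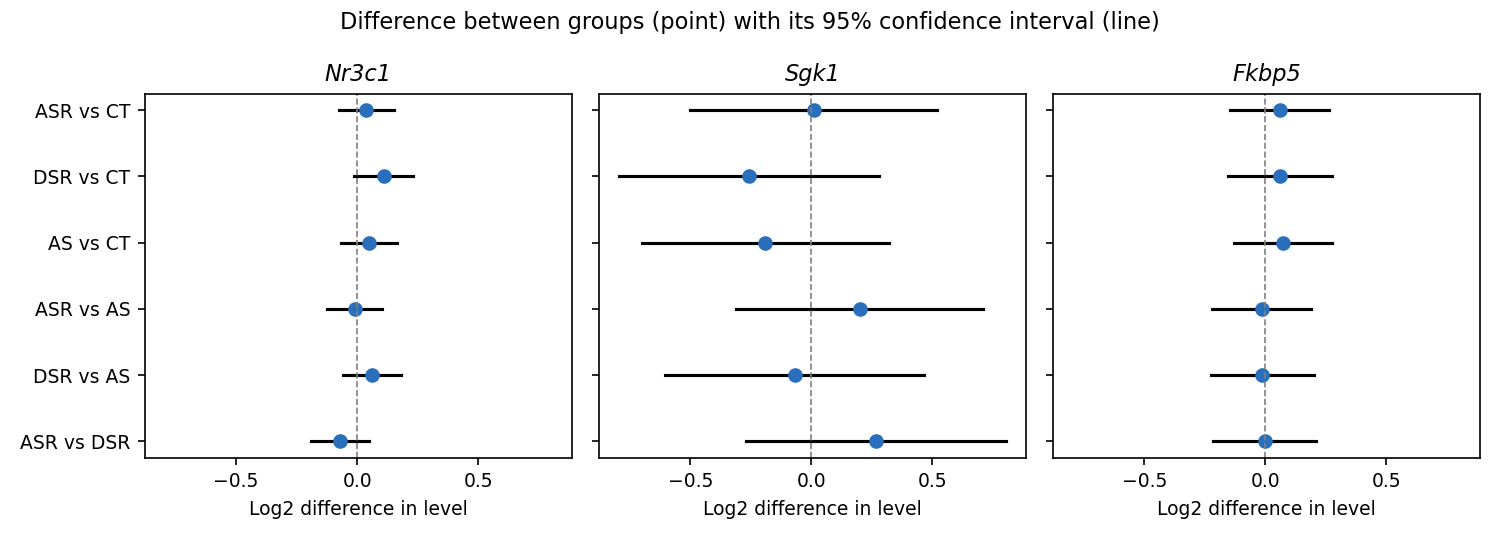
Log2 difference in level (point) with its 95% confidence interval (line) in the 6 comparisons between groups, for each gene on the same axis. Every interval crosses 0, and those of Sgk1 are the widest, reaching from −0.80 in DSR vs CT to 0.81 in ASR vs DSR.

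The counts of members past a threshold are set here beside those of all genes. An adjusted p under 0.05 was reached by 0 of the 3 members in each comparison and by 0% of the 16275 tested genes. At an unadjusted p under 0.05, the background against CT was 4.92% of genes for ASR rats, 4.63% for DSR rats and 21.4% for AS rats, and the members among them were 0 of 3 each time. Against AS rats it was 8.65% for ASR and 25.3% for DSR rats, and between ASR and DSR rats 4.29%, again with 0 of 3 members. DESeq2 on all groups also had 0 of 3 members at either threshold in each of the 6 comparisons. Its background at an adjusted p under 0.05 was 5.65% of genes for AS rats against CT rats, 5.16% for DSR against AS rats, 0.00615% for ASR against DSR rats and 0% in the other 3 comparisons, and the 4-group test of DESeq2 had 0 of 3 members beside 1.68% of genes. At an unadjusted p under 0.05, its background was 5.32% of genes for ASR rats, 4.99% for DSR rats and 22.1% for AS rats against CT rats, 9.45% for ASR and 26.2% for DSR rats against AS rats, 4.83% between ASR and DSR rats and 18.4% over the 4 groups. The comparisons of AS rats with CT and with DSR rats had the most genes at the unadjusted threshold, and in these the unadjusted p of the members lay between 0.310 and 0.904. A test of all 4 groups at once in edgeR gave unadjusted p-values of 0.331 for Nr3c1, 0.647 for Sgk1 and 0.882 for Fkbp5, beside 15.6% of all genes at an unadjusted p under 0.05. The adjusted p-values of this edgeR test were 0.602, 0.811 and 0.940 in the same order, beside 0% of all genes at an adjusted p under 0.05.

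The genes differed in level once gene length was taken into account. In TPM, counts per exonic base scaled so that the tested genes sum to 1000000, Sgk1 had 60.7 ± 18.9, Fkbp5 42.6 ± 4.92 and Nr3c1 30.6 ± 2.17 (mean and SD over 23 rats). Sgk1 was thereby above 84.5% of tested genes, Fkbp5 above 77.8% and the receptor above 70.0%. Lengths are the exonic lengths of all annotated transcripts together, so the order depends on the gene models.

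They differed more in how much rats of one group varied. The SD of log2 CPM within groups was 0.0944 for Nr3c1, 0.179 for Fkbp5 and 0.468 for Sgk1, beside a median of 0.194 over all tested genes. Genes of lower level vary more, so each gene was also set beside genes within 0.25 log2 units of its mean level. Among 698 such genes, 6 had a larger SD than Sgk1. The SD of Fkbp5 was larger than that of 78.1% of 1054 genes of its level, and that of Nr3c1 larger than that of 36.8% of 978. The counting error expected from the read numbers was 1.93% of the level for Sgk1, 2.22% for Nr3c1 and 2.32% for Fkbp5. The variation beyond counting that edgeR estimated was 29.5%, 7.19% and 12.1%, in the same order.

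**Figure D3:**
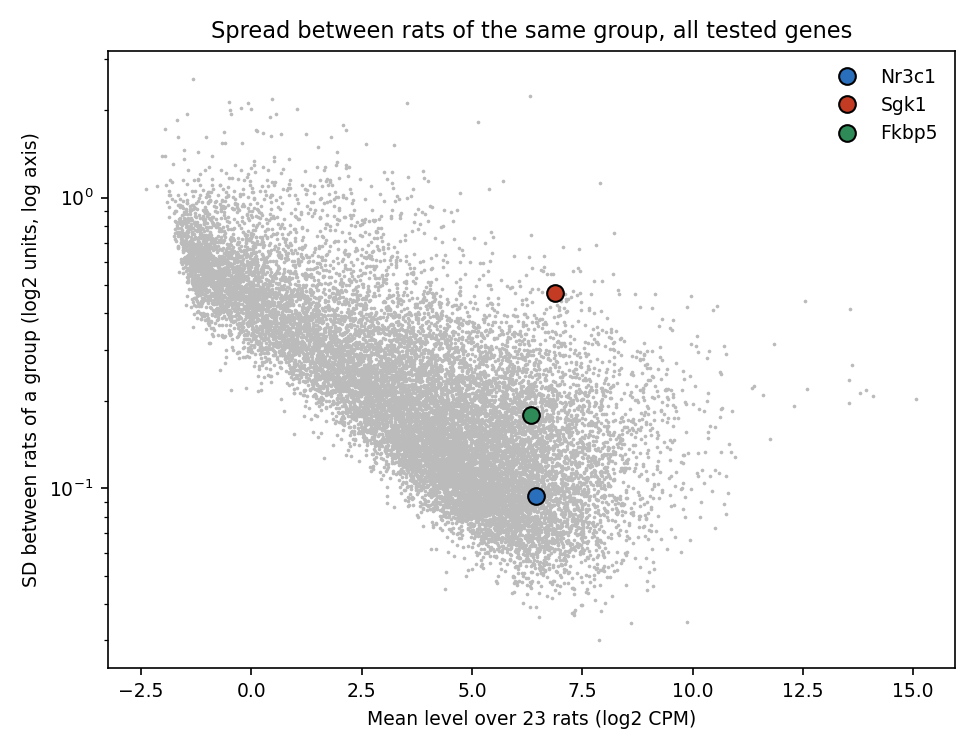
SD of log2 CPM between rats of one group (log axis) against the mean level over 23 rats (log2 CPM) for all 16275 tested genes (grey) and the 3 members (colored). Nr3c1 (0.0944) lies a little below the middle of the cloud at its level and Sgk1 (0.468) at its upper edge, with Fkbp5 (0.179) between them.

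The receptor and its targets did not vary together across rats to a degree that could be shown. On log2 CPM over 23 rats, Sgk1 and Fkbp5 had a Pearson r of −0.188 (permutation p = 0.388) and a Spearman rho of −0.203 (permutation p = 0.35). Nr3c1 and Sgk1 had an r of −0.228 (permutation p = 0.295) and a rho of −0.200 (permutation p = 0.36). Nr3c1 and Fkbp5 had an r of 0.241 (permutation p = 0.268) and a rho of 0.0909 (permutation p = 0.68). The tests were two-sided with 100000 resamples, and over the 3 pairs the adjusted p was 0.388 for each r and 0.540, 0.540 and 0.68 for rho. Without the 2 rats farthest from the median of the first gene of each pair, r was −0.285 for Sgk1 and Fkbp5, −0.213 for Nr3c1 and Sgk1 and −0.133 for Nr3c1 and Fkbp5. The positive r of the last pair thus rested on those rats.

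Within cohorts, r for Sgk1 and Fkbp5 was −0.163 in the 13 rats of cohort 7 and −0.215 in the 10 rats of cohort 8. For Nr3c1 and Sgk1 it was −0.527 and 0.199, and for Nr3c1 and Fkbp5 0.364 and −0.152, so that both pairs changed sign between cohorts. After the group means were removed, r was −0.174, −0.132 and 0.214 for the 3 pairs in the same order. Among 16274 other tested genes, Fkbp5 ranked 3284 by its r with Nr3c1, Fkbp5 ranked 10751 by its r with Sgk1, and Sgk1 ranked 13288 by its r with Nr3c1, counted from the highest r.

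**Figure D4:**
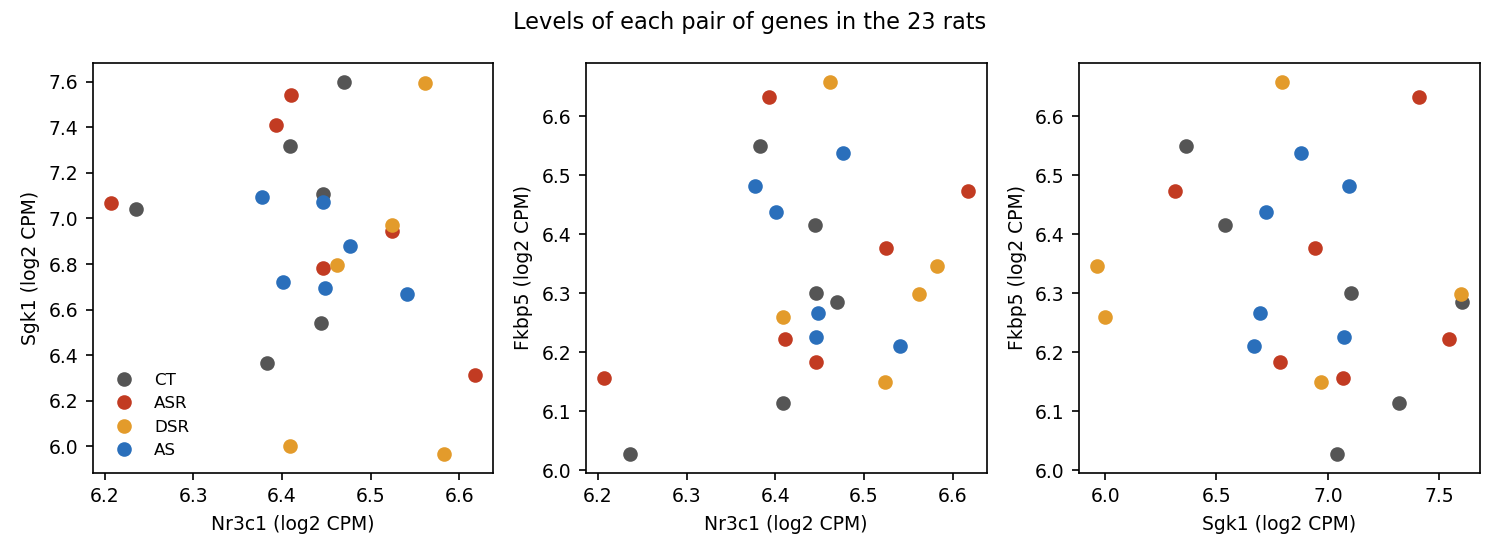
Levels (log2 CPM) of each pair of genes in the 23 rats, colored by group. The points form no line in any panel (r = −0.228, 0.241 and −0.188 from left to right), and the DSR rats with the lowest Sgk1 are ordinary in Fkbp5.

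Other genes followed each member more closely than the members followed each other. An r above 0.7 was found for 64 genes with Nr3c1, 203 with Sgk1 and 168 with Fkbp5, and an r below −0.7 for 15, 46 and 9. The gene most alike Fkbp5 was ENSRNOG00000016962 on chromosome 9 (94702129 to 94724902, plus strand), with an r of 0.868 and 375 to 927 counts per rat. The gene most alike Nr3c1 was ENSRNOG00000012099 on chromosome 2 (22747547 to 22798214, minus strand), with an r of 0.866 and 298 to 487 counts. The highest r of any gene with Sgk1 was 0.865. These values are the highest of 16274, all from the same 23 libraries, and are given as a description without a test.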

How the data were processed

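RNA of the dorsal striatum was measured in 23 rats. The authors enriched mRNA with oligo(dT), prepared libraries with a kit not described as stranded, used Trimmomatic 0.36 on the paired reads, STAR 2.5.2b for alignment to Rnor6.0, and featureCounts (Subread 1.5.2) to count reads that map once within exons. They deposited these counts unnormalized. The strand setting and the annotation release are not given in the sources used here.

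The genes and the lists were chosen with earlier results of these data known. The named genes are the 3 members and, for each, the gene with the highest r over 23 rats, of which at most 2 identifiers are printed (those with the highest r). The lists of other receptor targets, chaperones, stress axis genes and cell type markers, and with them a check of the tissue, were not analysed here, because the reference tables pair 0 Ensembl identifiers with symbols. The symbols of the members come from the rule that chose them, with their chromosomes checked.

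Counts were analysed in R 4.3.3 with edgeR 4.0.16 (filterByExpr, count minimum 10, total minimum 15, TMM factors, 4 groups in one quasi-likelihood fit with 19 residual degrees of freedom). The p-values were adjusted over 16275 genes by Benjamini and Hochberg's method, with a threshold of 0.05. Intervals are 95% intervals from the standard error of the fit. Log2 CPM used a prior count of 2. The study used DESeq2, which is an alternative here (1.42.0). Correlations were tested by permutation in Python 3.11.15. Each library was taken as a separate rat, and no 2 libraries agreed within sampling noise. The other alternatives were fits of 2 groups, RLE factors, no mitochondrial genes, no filter, cohort as a covariate, each cohort by itself, each rat left out and, for the correlations, a prior count of 0.5. The test of a change between cohorts was added after the within-cohort values were seen.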

Additional observations from a re-analysis of the deposited data

How the results depend on the processing

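No alternative brought a member to an adjusted p under 0.05 in edgeR or DESeq2, and the smallest was 0.217 (Sgk1, ASR vs DSR, cohort 7). Of 162 log2 differences of the members under the alternatives that left out no single rat, 143 kept their sign. In cohort 7 by itself, the log2 difference changed sign for Nr3c1 in ASR vs CT (−0.0466) and for Fkbp5 in ASR vs AS (0.0654) and DSR vs AS (0.224). In cohort 8 by itself, it changed sign for Nr3c1 in AS vs CT (−0.00867), ASR vs AS (0.115) and ASR vs DSR (0.0328), for Sgk1 in ASR vs CT (−0.405), ASR vs AS (−0.275), DSR vs AS (0.0123) and ASR vs DSR (−0.287), and for Fkbp5 in ASR vs CT (−0.0718), DSR vs CT (−0.185) and ASR vs DSR (0.113). The near-0 difference of Fkbp5 in ASR vs DSR also became 0.000632 and 0.000657 with DESeq2 on all and on 2 groups, 0.0018 with edgeR on 2 groups, 0.000583 with RLE factors, 0.00746 without mitochondrial genes and 0.000483 with cohort as a covariate. The r of Nr3c1 with Sgk1 became 0.199 in cohort 8, and that of Nr3c1 with Fkbp5 −0.152 in cohort 8 and −0.133 without the 2 farthest rats. The cause was not tested.

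With each rat left out in turn, the log2 difference ran from −0.107 to 0.143 for Sgk1 and from −0.00288 to 0.114 for Fkbp5 in ASR vs CT, from −0.0326 to 0.117 for Fkbp5 in DSR vs CT, from −0.0382 to 0.0377 for Nr3c1 and from −0.0661 to 0.0328 for Fkbp5 in ASR vs AS, from −0.558 to −0.119 for Sgk1 in DSR vs CT and from 0.125 to 0.565 for it in ASR vs DSR, from −0.356 to 0.0872 for Sgk1 and from −0.0885 to 0.0476 for Fkbp5 in DSR vs AS, and from −0.0607 to 0.0866 for Fkbp5 in ASR vs DSR.

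Counts of genes with an adjusted p under 0.05, all 0 in the edgeR fit of 4 groups, depended on the tool. DESeq2 on all groups gave 884 between AS and CT rats, 726 between DSR and AS rats, 1 between ASR and DSR rats and 258 over the 4 groups. DESeq2 on 2 groups gave 936 between AS and CT rats, 1777 between DSR and AS rats, 21 between ASR and AS rats, 15 between ASR and CT rats and 1 between DSR and CT rats. For ASR vs CT, edgeR on 2 groups gave 1. With 1 rat left out, the counts ran from 0 to 1377 in AS vs CT (highest without CT Grp7-R5, then 1299 without AS Grp7-L10, 314 without DSR Grp8-L9 and 137 without DSR Grp7-R7), from 0 to 1954 in DSR vs AS (highest without DSR Grp8-L9, then 904 without AS Grp7-L10) and from 0 to 368 over the 4 groups (highest without AS Grp7-L10). No paired analysis was possible because no rat code is shared between groups.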
